A study of Arabidopsis thaliana with 12 samples.

Results

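The jacalin lectin genes around AT1G52070 are 7 loci of a run of related genes on Arabidopsis chromosome 1: AT1G52000, AT1G52050, AT1G52060, AT1G52070, AT1G52100, AT1G52120 and AT1G52130. They were listed by locus, with earlier results of these data known, and do not include every gene of this run. Of the 7, 5 were paired with a probe set of their own and 0 with a shared one, out of 22746 probe sets that are not controls. AT1G52120 and AT1G52130 were paired with no probe set and were not analysed here. The other pairs were AT1G52000 with 265053_at, AT1G52050 with 265048_at, AT1G52060 with 265049_at, AT1G52070 with 265050_at and AT1G52100 with 265051_at.

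The arrays were 12 Affymetrix ATH1 arrays, which carry sets of short oligonucleotide probes for most Arabidopsis genes. RNA came from whole seedlings of 5 days in liquid culture, all in the Columbia background. The 4 groups of 3 arrays were untreated wildtype, wildtype with H2O2 at 20 mM for 1 hour, untreated Zat12 and Zat12 with the same H2O2 treatment. Zat12 seedlings carry a transgene that expresses the zinc finger protein Zat12 throughout the plant from the CaMV 35S promoter, and the number of transgenic lines behind them was not given in the sources used here. No probe set was paired with ZAT12, so the over-expressed gene was not analysed here as a check of the labels. Of the 22746 probe sets that are not controls, the annotation used paired 8730 with no gene and 503 with several. A locus without a probe set of its own here, ZAT12 included, may therefore still have probes on the array. The labels number the replicates without saying that they were separate cultures, so p-values measure the spread between these samples, which may be technical.

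Jacalin is a lectin of jackfruit seeds, and proteins that share its fold bind sugars such as mannose or galactose without modifying them. Arabidopsis has a large family of them. Several bind PYK10, a beta-glucosidase stored in the ER bodies of seedlings and roots, and gather it into large complexes when cells are damaged. Myrosinase-binding proteins, a branch of the same family, associate with the enzymes that release the toxic products of glucosinolates. The genes described here belong to the mannose-binding branch, and the function of the single proteins is not established. Roots are the organ they are linked with, but the arrays measured whole seedlings, so the organ of origin was not measured. None of the 13 loci of a list of root endodermis and uptake genes was paired with a probe set of its own.

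Values are the authors' MAS5 signals, a linear brightness for each probe set scaled to the same average on every array. Differences between groups are on the scale log2(signal + 3). A probe set was tested if its mean was above a signal of about 28.1, and called if the limma fit over all 13647 tested probe sets gave a Benjamini-Hochberg adjusted p below 0.05. Of the 5 lectin genes with a probe set, 4 passed that filter, and AT1G52000 did not. A signal depends on the probes as well as on the transcript, so levels are compared between groups and not between genes.

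The array Zat12 replicate 2 had empty cells for 28.1% of its probe sets, among them AT1G52050, AT1G52060 and AT1G52100, so these genes have 2 untreated Zat12 values. The array's 25S ribosomal RNA control measured 71.4 ± 48.1 (SD, n = 3) in untreated wildtype. The means of the other groups lay between 173 and 232, with SDs of 81.9 to 92.3. The fit was therefore repeated with the 25S signal as a covariate. The signal of the 3' actin control divided by that of the 5' one was also uneven. It was 6.57 ± 2.83 (SD, n = 3) in untreated wildtype, with 9.50 in replicate 1, and the means of the other groups lay between 4.85 and 5.35. This ratio was not used in a fit.

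All 4 tested lectin genes fell after H2O2 in wildtype seedlings. Their signals fell to between 41.2% and 57.7% of the untreated level within 1 hour. In wildtype, 12.4% of all tested probe sets were called lower after H2O2 and 9.59% higher, and of the lectin genes 4 of 4 were called lower and 0 higher. Their median log2 difference was -0.91, against -0.07 over all tested probe sets. Since the lectin genes were chosen with earlier results of these data known, these shares and medians are a description and not a test. In whole seedlings, less RNA per cell and fewer cells of a type cannot be told apart.

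AT1G52100 in untreated wildtype measured 1347, 1413 and 1043, and after H2O2 468, 600.5 and 496. Every treated array lay below every untreated one, and the highest treated value was well under the lowest untreated one. The log2 difference was -1.27 (SE 0.18, limma adjusted p = 7.07e-05), a 2.41-fold decrease. Only 39 of the 13647 tested probe sets had a lower difference in this comparison.

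AT1G52070 measured 104.7, 150.1 and 145.7 in untreated wildtype and 57.0, 77.1 and 87.6 after H2O2. The groups did not overlap, although replicate 1 was the lowest array on both sides. The log2 difference was -0.83 (SE 0.18, limma adjusted p = 0.00271), a 1.78-fold decrease.

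AT1G52050 and AT1G52060, the genes just before it in gene order, had much the same profile. AT1G52050 measured 106.9, 148.4 and 140.9 without treatment and 47.5, 70.9 and 80.4 with it, which is -0.98 on the log2 scale (SE 0.18, limma adjusted p = 0.000739). AT1G52060 measured 75.0, 97.3 and 85.9 without treatment and 33.2, 57.0 and 58.7 with it, which is -0.79 on the log2 scale (SE 0.20, limma adjusted p = 0.0102). In both genes the groups did not overlap, and wildtype H2O2 replicate 1 was the lowest of the 6 arrays. Without that array AT1G52060 was no longer called, at a log2 difference of -0.54 (limma adjusted p = 0.0599).

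With 25S as a covariate, 1 of the 4 genes was still called in wildtype. That gene was AT1G52100, at a log2 difference of -1.11 (limma adjusted p = 0.0123). The other genes kept a lower value of -0.74 each and missed the threshold, with adjusted p of 0.0838 for AT1G52050, 0.158 for AT1G52060 and 0.0766 for AT1G52070. The covariate also moved the whole table, where 794 probe sets were then called lower in place of 1689. In wildtype the 25S signal was 32.9 to 125.3 on untreated arrays and 125.7 to 295.2 on treated ones. Covariate and treatment therefore went together in this comparison, and their parts in a lost call cannot be told apart.

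**Figure D1:**
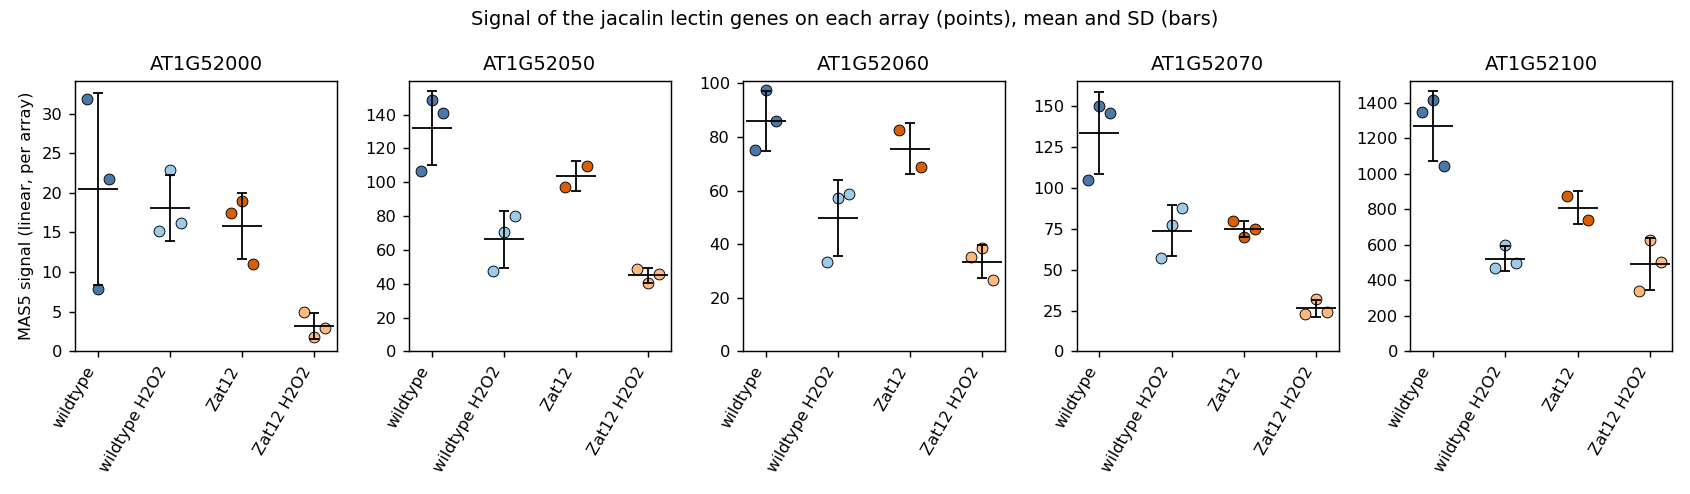
MAS5 signal (linear, vertical axes starting at 0) of the 5 lectin genes with a probe set on each array, with the 4 groups on the horizontal axis. Points are arrays, and bars give the mean and SD (2 points in untreated Zat12 where an array had an empty cell). In the 4 genes right of AT1G52000 the treated arrays lie below the untreated arrays of their genotype, and AT1G52070 reaches its lowest signals, 22.9 to 32.3, in treated Zat12.

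The 4 genes also fell after H2O2 in Zat12 seedlings. This comparison shares no array with the one in wildtype. The fit took each probe set's spread from all 12 arrays, so the p-values of the comparisons are not independent. Here 9.12% of all tested probe sets were called lower and 8.16% higher, and again 4 of 4 lectin genes were called lower and 0 higher. Their median log2 difference was -1.13, against -0.09 over all tested probe sets. As in wildtype, this is a description of genes chosen with earlier results known. The largest decrease was that of AT1G52070, and the smallest that of AT1G52100.

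AT1G52070 measured 79.8, 69.7 and 74.7 in untreated Zat12 and 22.9, 32.3 and 23.9 after H2O2. The untreated arrays were close together, and the treated ones lay far below them. The log2 difference was -1.42 (SE 0.18, limma adjusted p = 1.38e-05), a 2.67-fold decrease of signal + 3. Because the treated signals were dim, its size depends on the added constant of 3. With 4 times the constant the log2 difference was -1.18. AT1G52070 was called lower under all 23 alternative settings, including the 25S covariate, at limma adjusted p between 7.89e-06 and 0.000181.

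AT1G52050 measured 97.3 and 109.7 on the untreated Zat12 arrays with a value, and 48.7, 40.2 and 45.9 after H2O2. AT1G52060 measured 82.4 and 68.8 untreated, and 35.3, 38.5 and 26.7 after H2O2. Treated and untreated arrays did not overlap in either gene. The log2 difference was -1.15 (SE 0.20, limma adjusted p = 0.000531) for AT1G52050. It was -1.12 (SE 0.23, limma adjusted p = 0.00218) for AT1G52060. Both were also called with the 25S covariate.

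AT1G52100 measured 874 and 741 on the untreated Zat12 arrays with a value, and 339, 629 and 502 after H2O2. The groups did not overlap, but Zat12 H2O2 replicate 2 came close to the untreated arrays. The log2 difference was -0.76 (SE 0.20, limma adjusted p = 0.0153), a 1.69-fold decrease. The call was lost without Zat12 replicate 1 (limma adjusted p = 0.142) and without Zat12 H2O2 replicate 1 (limma adjusted p = 0.0656).

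The interaction term tests whether the H2O2 response differed between the genotypes. By limma it called 0 of the 4 lectin genes, of which 1 had an unadjusted p below 0.05. Over all tested probe sets limma called 0.11% lower and 0 higher in this term, and 971 had an unadjusted p below 0.05. The response of AT1G52070 was more negative in Zat12 by 0.59 on the log2 scale, with a 95% interval of the difference from -1.12 to -0.05 (limma adjusted p = 0.658). That of AT1G52100 was less negative in Zat12, with a difference of 0.52 and an interval from -0.06 to 1.09 (limma adjusted p = 0.728). For AT1G52050 the difference was -0.17, with an interval from -0.74 to 0.40. For AT1G52060 it was -0.33, with an interval from -0.97 to 0.32. Of the 4 intervals, that of AT1G52070 lay below 0 and the others included it.

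**Figure D2:**
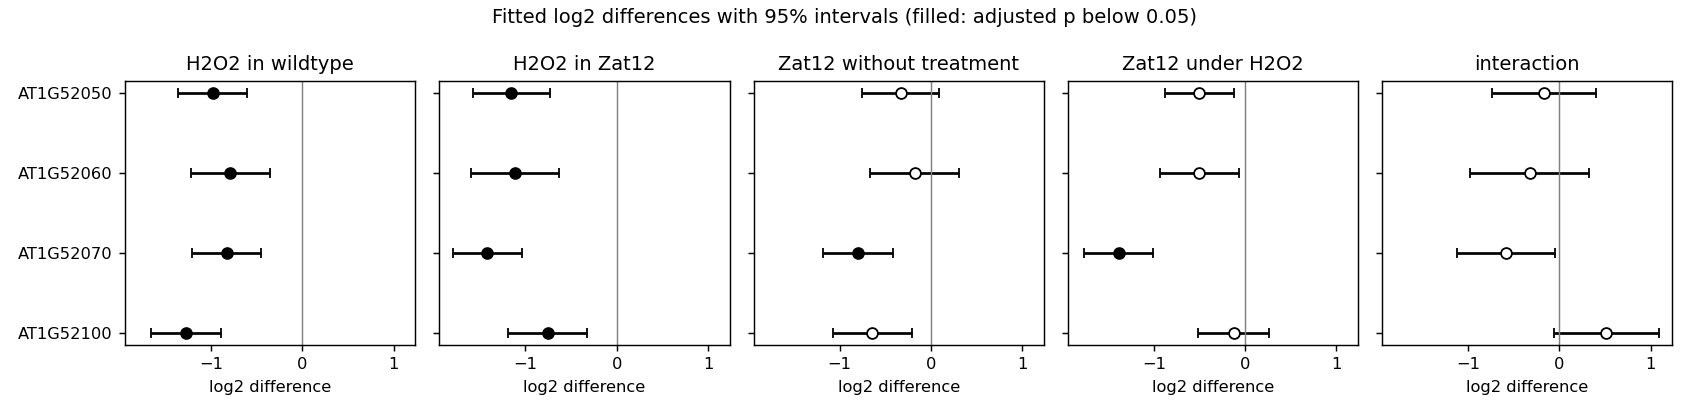
Fitted log2 differences (horizontal axis) of the 4 tested lectin genes in the 5 comparisons, with 95% intervals. Filled points were called at an adjusted p below 0.05: all 4 genes for H2O2 in each genotype, only AT1G52070 among them in the comparisons of Zat12 with wildtype, and none in the interaction.

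Over-expression of Zat12 went with lower AT1G52070 in seedlings that had received no H2O2. The means were 133.5 ± 25.04 (SD, n = 3) in wildtype and 74.7 ± 5.05 (SD, n = 3) in Zat12. The lowest wildtype array, at 104.7, was above the highest Zat12 array, at 79.8. Between the untreated genotypes 0.498% of all tested probe sets were called lower and 0.725% higher, and of the lectin genes 1 of 4 was called lower and 0 higher. The log2 difference of AT1G52070 was -0.80 (SE 0.18, limma adjusted p = 0.0389), a 1.74-fold decrease.

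This call was close to the threshold. Leaving out wildtype replicate 2 or 3, wildtype H2O2 replicate 2 or any one of the 3 Zat12 replicates ended it, with limma adjusted p between 0.0506 and 0.156, and so did the 25S covariate (log2 difference -0.73, adjusted p = 0.226), a fit with no filter (0.112) and one with no trend (0.0736). The log2 difference itself stayed between -0.96 and -0.71 over the 23 settings.

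The other lectin genes were not called between the untreated genotypes. AT1G52100 had a mean of 1268 ± 197 (SD, n = 3) in wildtype and 808 ± 93.6 (SD, n = 2) in Zat12. Its groups did not overlap either, and the log2 difference was -0.64 with an interval from -1.07 to -0.21 (limma adjusted p = 0.169). AT1G52050 had a mean of 132 ± 22.1 (SD, n = 3) in wildtype and 103.5 ± 8.80 (SD, n = 2) in Zat12, with overlapping arrays and an interval from -0.76 to 0.09. AT1G52060 had a mean of 86.1 ± 11.2 (SD, n = 3) in wildtype and 75.6 ± 9.58 (SD, n = 2) in Zat12. Its arrays overlapped as well, with an interval from -0.66 to 0.31. The median log2 difference of the 4 genes was -0.49, against -0.0018 over all tested probe sets.

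Under H2O2, AT1G52070 was the only one of the 4 tested lectin genes called between the genotypes. Its mean was 73.9 ± 15.5 (SD, n = 3) in treated wildtype and 26.3 ± 5.14 (SD, n = 3) in treated Zat12, and the groups did not overlap. Here 1.4% of all tested probe sets were called lower, and of the lectin genes 1 of 4 was. The log2 difference was -1.38 (SE 0.18, limma adjusted p = 0.000451), a 2.61-fold decrease of signal + 3. Only 5 of the 13647 tested probe sets had a lower difference, against 392 for AT1G52050, 389 for AT1G52060 and 4131 for AT1G52100. AT1G52070 was chosen with earlier results of these data known, so its rank is a description and not a test. The treated Zat12 mean lay below the signal of about 28.1 that the filter set for a probe set's mean. The size of this difference therefore depends on the added constant of 3, and with 4 times the constant it was -1.16. The call held under all 23 alternative settings, at adjusted p between 0.000316 and 0.00512.

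The other genes were not called in this comparison, and their arrays overlapped between the genotypes. AT1G52050 had means of 66.2 ± 16.9 (SD, n = 3) and 45.0 ± 4.32 (SD, n = 3), with a log2 difference of -0.50 and an interval from -0.88 to -0.12 (limma adjusted p = 0.153). AT1G52060 had means of 49.7 ± 14.3 (SD, n = 3) and 33.5 ± 6.11 (SD, n = 3), with a log2 difference of -0.50 and an interval from -0.94 to -0.07 (limma adjusted p = 0.218). In both the lowest treated wildtype array, replicate 1, lay within the range of treated Zat12. AT1G52100 had means of 522 ± 69.6 (SD, n = 3) and 490 ± 145 (SD, n = 3), with a log2 difference of -0.13 and an interval from -0.51 to 0.26 (limma adjusted p = 0.797). This last value changed sign, to 0.12, without Zat12 H2O2 replicate 1.

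The order of the group means was as follows, and its difference between genes was not tested. AT1G52070 was highest in untreated wildtype. Treated wildtype and untreated Zat12 followed at 55.4% and 56.0% of it, and did not differ beyond their spread. Treated Zat12 was lowest, at 19.7%. AT1G52100 was highest in untreated wildtype, next in untreated Zat12 at 63.7%, and lowest in treated wildtype and treated Zat12, at 41.2% and 38.7%, whose arrays overlapped. In AT1G52050 and AT1G52060 the untreated groups overlapped at the top and the treated groups overlapped at the bottom.

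Apart from the added constant of 3, a difference between probe sets within the same array is free of the scaling between arrays. Its level depends on the probes, so only its change between groups can be read. For AT1G52070 against AT1G52060 it was 0.61 ± 0.14 (SD, n = 3) on the log2 scale in untreated wildtype and 0.57 ± 0.16 (SD, n = 3) in treated wildtype. In Zat12 it was 0.03 ± 0.11 (SD, n = 2) untreated and -0.31 ± 0.22 (SD, n = 3) treated. The lowest wildtype array, at 0.42, was above the highest Zat12 array, at 0.11, so the genotypes did not overlap with or without H2O2. This pair was chosen after its values were seen, and the difference was not tested. For AT1G52050 against AT1G52060 the means lay between 0.40 and 0.59, and the genotypes overlapped with and without H2O2.

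**Figure D3:**
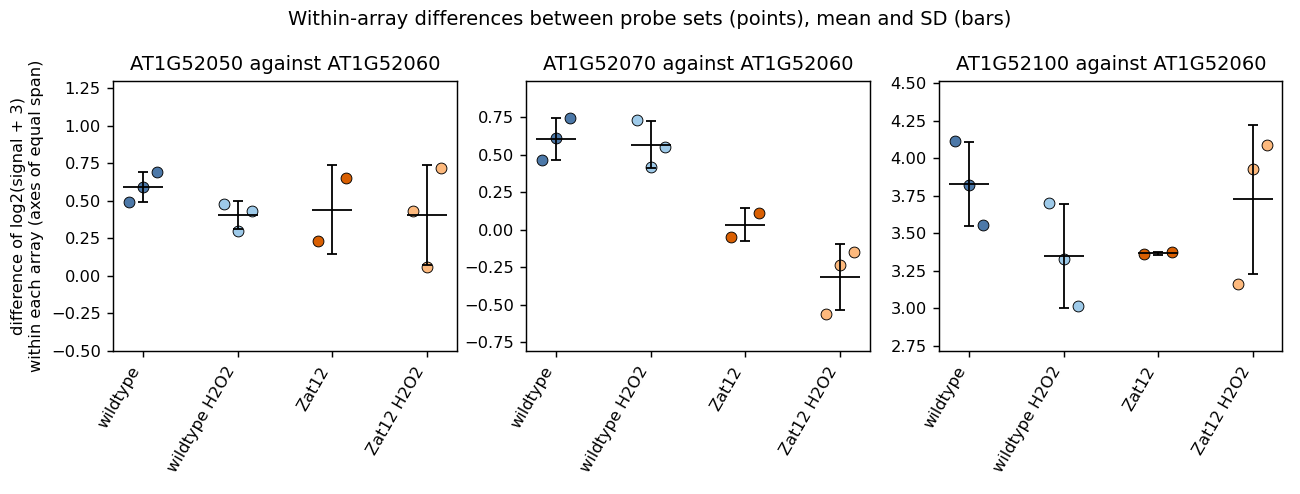
Difference of log2(signal + 3) between 2 lectin probe sets on the same array (vertical axes of equal span), by group. Points are arrays and bars give the mean and SD. For AT1G52070 against AT1G52060 the Zat12 arrays, at 0.11 or lower, lie below the wildtype arrays, at 0.42 or higher. For AT1G52050 against AT1G52060 the genotypes overlap with and without H2O2, and for AT1G52100 only with it.

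AT1G52000, the first gene of the run, was too dim for the tests above, with group means of 20.5 ± 12.1, 18.1 ± 4.17 and 15.8 ± 4.19 (SD, n = 3 each) in wildtype, treated wildtype and Zat12. Its arrays spread widely in untreated wildtype, with 31.9, 7.8 and 21.7. In treated wildtype they measured 15.2, 22.9 and 16.2, and in untreated Zat12 17.4, 18.9 and 11.0. In treated Zat12 they measured 5.0, 1.8 and 2.9, below every other array. These values lie close to the constant of 3 that was added before taking logs, so a fold is not given and the size of a log2 difference depends on the constant. In a fit without the filter, over 22746 probe sets, the log2 difference for H2O2 in Zat12 was -1.60 (SE 0.40, limma adjusted p = 0.0202), and that for H2O2 in wildtype was -0.02 with an interval from -0.88 to 0.84. Over the alternatives the first lay between -2.38, with no constant added, and -0.86, with 4 times the constant. Its call was lost without Zat12 replicate 1 or 2 or without Zat12 H2O2 replicate 2 or 3, at adjusted p up to 0.0759. Under H2O2 the log2 difference between Zat12 and wildtype was -1.77 (limma adjusted p = 0.0528), with values from -2.59 to -0.98 over the alternatives. It was called with no constant added, with the 25S covariate, without wildtype replicate 1 and without wildtype replicate 2, at limma adjusted p between 0.0187 and 0.0448. The interaction was not called (limma adjusted p = 0.692).

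AT1G52050, AT1G52060 and AT1G52070 also varied together within groups, and AT1G52100 did so less closely or not at all. Taking each array's deviation from its group mean, over 11 arrays that share their scaling, Pearson's r was 0.82 for AT1G52060 with AT1G52070, 0.68 for AT1G52050 with AT1G52060 and 0.64 for AT1G52050 with AT1G52070. For AT1G52100 with these genes it lay between -0.17 and 0.38. Whether transcripts of the neighbouring genes bind each other's probes was not analysed here, since the probe and gene sequences were not used.

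The genes that lie among and beside the lectins were described by a list. It holds the 17 genes from AT1G51900 to AT1G52220 that have a probe set of their own and are not among the lectins, and 8 of these passed the filter. Limma called 0 of the 8 lower, with 0 at an unadjusted p below 0.05, and 1 higher in each genotype, with median log2 differences of -0.06 in wildtype and -0.01 in Zat12. Over all tested probe sets 12.4% were called lower and 9.59% higher in wildtype, and 9.12% and 8.16% in Zat12, or about 1 of 8, so these counts are near the background. Without wildtype replicate 3, 1 neighbour was called lower in wildtype. The one called higher was AT1G52200, a cysteine-rich protein gene, at 0.76 in wildtype (limma adjusted p = 0.0067) and 1.14 in Zat12 (limma adjusted p = 0.000759). AT1G52140, just past the end of the run, had values of -0.05 and -0.15 and was not called. Between the first and the last lectin, AT1G52010, AT1G52020, AT1G52080 and AT1G52090 fell below the filter. The myrosinase-binding protein genes MBP1 and MBP2, which lie between AT1G52000 and AT1G52050, were paired with no probe set of their own.

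**Figure D4:**
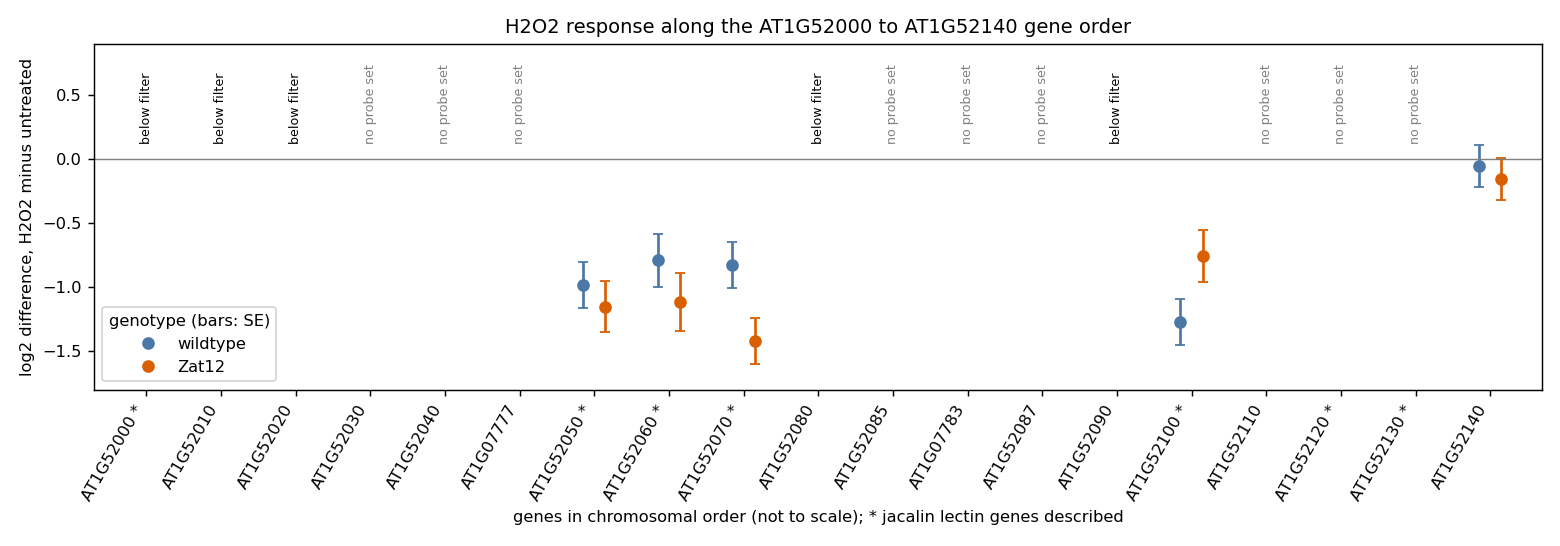
H2O2 minus untreated log2 difference (vertical axis, bars are SE) for the genes from AT1G52000 to AT1G52140 in their chromosomal order, spaced evenly and not to scale, in wildtype and in Zat12. The 4 tested lectin genes lie between -0.76 and -1.42, and AT1G52140 lies near 0. Genes without points were below the filter or were paired with no probe set of their own.

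Some jacalin-domain genes elsewhere in the genome fell too. A list of 40 jacalin-domain loci had 16 with a probe set of their own, and 8 of these passed the filter. The list includes MBP1, MBP2 and AT1G52110 of the same run, which were paired with no probe set of their own. After H2O2 in wildtype 4 of the 8 were called lower and 0 higher, with a median log2 difference of -0.49, and in Zat12 3 were called lower and 0 higher, with a median of -0.30. The shares called lower over all tested probe sets were 12.4% and 9.12%. AT1G33790 lay on the other side of 0, at 0.42 in wildtype (limma adjusted p = 0.0546), the 1 gene of the list that was higher at an unadjusted p below 0.05. AT5G35940 moved the most of the 8, at -0.86 (limma adjusted p = 0.0133) in wildtype and -0.85 (limma adjusted p = 0.0173) in Zat12. JAL33, a jacalin-related lectin of the PYK10 complex, was at -0.57 (limma adjusted p = 0.000806) and -0.42 (limma adjusted p = 0.00974). AT2G25980 was at -0.52 (limma adjusted p = 0.0415) in wildtype and was not called in Zat12, at -0.31. The count in Zat12 fell to 1 without Zat12 replicate 2 and to 0 without Zat12 H2O2 replicate 1, and that in wildtype to 2 without wildtype H2O2 replicate 1 and to 1 with the 25S covariate. Between the genotypes limma called 0 of the 8, with median log2 differences of -0.02 without H2O2 and 0.15 with it. At an unadjusted p below 0.05, 2 were higher and 1 lower in Zat12 without H2O2, and 2 were higher and 0 lower with it. Whether the 4 lectin genes differ from this list was not tested.

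Genes of the ER body, the store of PYK10, also fell after H2O2. Of 14 loci, 7 had a probe set of their own and 5 passed the filter, and JAL33 and JAL22 of these are also in the list of jacalin-domain genes. In wildtype 4 of the 5 were called lower, with a median log2 difference of -0.57, and in Zat12 3 were, with a median of -0.42, beside 12.4% and 9.12% called lower over all tested probe sets. NAI1, the bHLH transcription factor needed to form ER bodies, was at -0.85 in wildtype (limma adjusted p = 0.00158) and -0.56 in Zat12 (limma adjusted p = 0.0304). NAI2, a protein of the ER body needed for its formation, was at -0.80 (limma adjusted p = 0.000134) and -0.55 (limma adjusted p = 0.00965). PYK10 itself was not called, at -0.23 and -0.19. The count in wildtype was 2 with the 25S covariate, and that in Zat12 was 1 without Zat12 replicate 3 or without Zat12 H2O2 replicate 1.

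Root hair transcripts also moved with H2O2, and their part in the lectin values was not tested. Of 22 loci, 8 had a probe set of their own and 7 passed the filter. In wildtype 4 of the 7 were called lower, with a median log2 difference of -0.71, and in Zat12 all 7 were, with a median of -1.32, beside 12.4% and 9.12% called lower over all tested probe sets. A summed signal was taken over the 7 of the 8 that have a value on every array, which leaves out AT5G17820 and includes AT3G49960, the gene below the filter. It was 618 to 873 in untreated wildtype, 252 to 331 in treated wildtype, 776 to 1215 in untreated Zat12 and 208 to 292 in treated Zat12. AT3G49960, also a class III peroxidase gene, had means of 39.2 ± 18.1 (SD, n = 3) in wildtype and 46.8 ± 26.8 (SD, n = 3) in Zat12 without treatment, and of 1.57 and 1.56 with it. Among the 7 tested genes the largest change was in AT4G26010, another gene of this family, with means of 292 ± 53.4 (SD, n = 3) in untreated and 73.2 ± 26.5 (SD, n = 3) in treated wildtype. In Zat12 the means were 391 ± 115 (SD, n = 3) untreated and 44.1 ± 16.3 (SD, n = 3) treated.

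Between the untreated genotypes the median of the root hair list and the value of AT1G52070 lay on opposite sides of 0, and how they relate was not tested. Values of the list ran from -0.08, in AT5G17820, to 0.57. The median log2 difference of the root hair list was 0.39 with 0 of 7 called by limma and 3 higher at an unadjusted p below 0.05, and that of AT1G52070 was -0.80. Under H2O2 1 of the 7, AT5G17820, was called lower in Zat12, at -0.63 (limma adjusted p = 0.0253). Of the chloroplast transcripts LHCB4.2 and RCA limma called 0 in any comparison, with 1 higher at an unadjusted p below 0.05 after H2O2 in wildtype. Of the 4 measured reference genes it called 0 as well, with 1 lower at an unadjusted p below 0.05 after H2O2 in each genotype and 1 higher in Zat12 under H2O2.

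**Figure D5:**
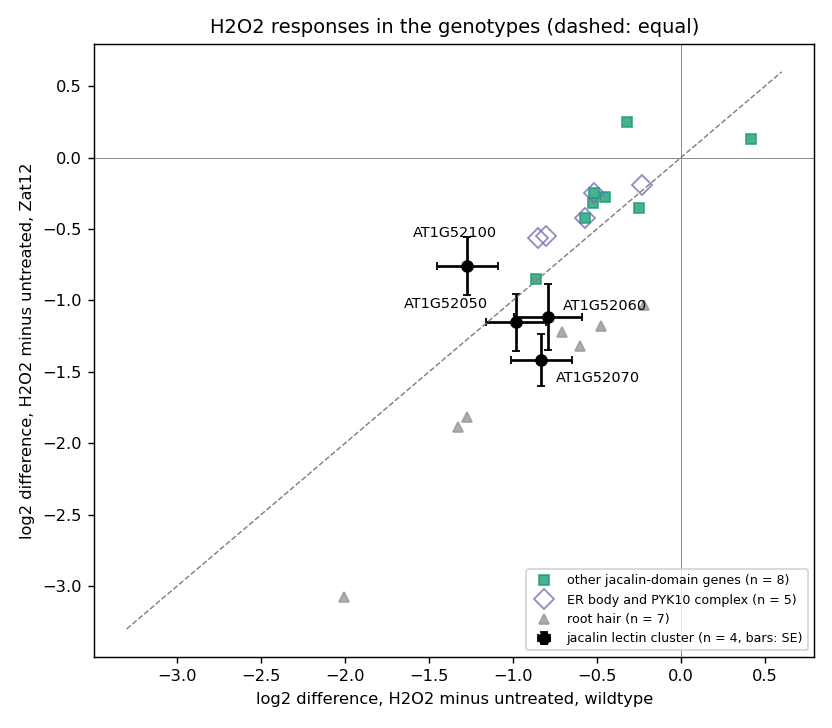
H2O2 minus untreated log2 difference in wildtype (horizontal axis) and in Zat12 (vertical axis) for the 4 tested lectin genes (black, bars are SE), 8 other jacalin-domain genes, 5 ER body genes and 7 root hair genes. AT1G52070 lies below the dashed line of equal response and AT1G52100 above it, and the root hair genes reach -3.08 in Zat12.

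The probe sets whose pattern was most like that of AT1G52070 were found by Pearson's r of log2(signal + 3) over the arrays. The 7356 candidates were the tested probe sets with 1 named gene other than the lectin genes, with the genes of the lists included. The median r of these candidates was 0.13 and 40 had an r above 0.9. The 12 arrays fall into 4 groups, so r mainly measures likeness of the group means. AT2G37130, a class III peroxidase gene, came first at an r of 0.976 over 11 arrays. It had means of 720 ± 12.0 (SD, n = 3) in wildtype, 392 ± 30.6 (SD, n = 3) in treated wildtype, 421 ± 41.4 (SD, n = 2) in Zat12 and 184 ± 29.7 (SD, n = 3) in treated Zat12. In Zat12 it was called lower with and without H2O2, at log2 differences of -1.09 (limma adjusted p = 0.000168) and -0.77 (limma adjusted p = 0.0101). Calls of genes picked by r on these same arrays, here and below, follow in part from that choice and are no separate support.

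The next were EXPB3, a beta-expansin gene, at an r of 0.965 over 12 arrays, and PRXR1, another class III peroxidase gene, at 0.951 over 12 arrays. Both were called lower in treated Zat12 against treated wildtype, at log2 differences of -0.79 (limma adjusted p = 0.00172) and -0.55 (limma adjusted p = 0.00894). Neither was called between the untreated genotypes, at -0.40 (limma adjusted p = 0.135) and -0.33 (limma adjusted p = 0.160). CPI1, which encodes a cyclopropyl isomerase of sterol synthesis, and AT1G61740 followed, both at 0.946 over 11 arrays. They were not called between the genotypes under H2O2, at -0.48 (limma adjusted p = 0.0615) and -0.36 (limma adjusted p = 0.0541). Without H2O2 they were not called either, at -0.14 (limma adjusted p = 0.795) and -0.31 (limma adjusted p = 0.207).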

How the data were processed

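The deposited table holds the intensity that the authors obtained with MAS5 for each probe set and array, per the submitters' processing notes, which give no version. With 2% trimmed at each end, the mean signals of the arrays were 100.01 to 100.1. The number of arrays limits the precision. Empty cells stayed empty. Probe sets were named by the platform annotation, and gene names and order came from RefSeq's TAIR10.1 table. Of 22810 probe sets, 64 controls were left out. Promoter and protein sequences were not analysed here.

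All signals became log2(signal + 3), 3 being the rounded 10th percentile of all values. Probe sets with a mean above the 40th percentile (4.96) were fitted with limma 3.58.1 in R 4.3.3 as 4 group means with a mean-variance trend. Calls used a Benjamini-Hochberg adjusted p below 0.05. The code was tested on simulated data. Python 3.11.15, pandas 2.3.3 and matplotlib 3.10.9 prepared tables and plots.

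The lectin genes and lists were chosen with earlier results of these data known. Named were all lectin genes, the 5 genes most like AT1G52070 and up to 3 examples a list with the largest change. Other genes were named after their values were seen. Same-numbered arrays of treated wildtype and treated Zat12 deviated together (r of 0.12, 0.15 and 0.13), and those of the other comparisons did so in only some pairs. Over all 18 same-numbered pairs r ran from -0.25 to 0.23, with a mean of 0.02. The mean was -0.01 for pairs with different numbers, of which wildtype replicate 3 with Zat12 replicate 2 had an r of 0.21. The replicate number was tried as a block.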

Additional observations from a re-analysis of the deposited data

How the results depend on the processing

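Over 23 planned settings, limma called 0 tested lectin genes higher. The count called lower by H2O2 in wildtype went from 4 to 1 with the 25S covariate. With only probe sets measured on every array it was 1 in wildtype and 1 in Zat12, because the other genes have an empty cell and leave the table. The count for untreated Zat12 against wildtype went from 1 to 0 with no filter, with no trend, with the 25S covariate and at an adjusted p below 0.01, and ranged from 0 to 1 when arrays were left out. The causes were not tested. With the replicate block the counts were 4, 4, 1, 1 and 0 for H2O2 in wildtype, H2O2 in Zat12, Zat12 untreated, Zat12 under H2O2 and the interaction, so the block changed no call of a lectin gene. For AT1G52100 in Zat12 against wildtype under H2O2, values without single arrays ranged from -0.33 to 0.12. At an adjusted p below 0.01, AT1G52060 in wildtype and AT1G52100 in Zat12 were no longer called. Counts over the whole table moved between the untreated genotypes from 99 higher and 68 lower to 37 and 23 with no filter, 40 and 21 with no trend, 36 and 20 with the 25S covariate and 30 and 17 at the stricter threshold. Under H2O2 the 191 lower became 121, 89, 321 and 49 in the same order, and the 15 lower of the interaction became 3, 3, 8 and 6. Single arrays moved these counts too: untreated to 26 higher and 16 lower without Zat12 replicate 1 and 168 higher without wildtype replicate 3, under H2O2 to 302 lower without wildtype replicate 2 and 67 without Zat12 H2O2 replicate 3, the interaction to 44 without wildtype replicate 3 and 6 without Zat12 H2O2 replicate 3, and H2O2 in wildtype from 1689 to 1074 lower without wildtype H2O2 replicate 1. List counts under alternatives were added after seeing the data. Other jacalin-domain genes called lower went from 4 to 2 in wildtype, with 1 higher, when only the 2 groups compared were fitted, and from 3 to 1 in Zat12 with no filter. The neighbours called higher in Zat12 went from 1 to 2 with the 25S covariate.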
